A study of Mus musculus with 21 samples.

Results

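The comparison described here sets hPTH(1-31) directly against hPTH(1-34), 2 fragments of human parathyroid hormone (PTH) that share their first residues and differ in that hPTH(1-31) lacks residues 32 to 34. It covers 6 of the 21 arrays of the study, 3 for each peptide, chosen by their treatment label alone. All 22180 genes that could be named by a single symbol were compared. The cells were primary calvarial osteoblasts, the bone-forming cells of the skull vault, from C57BL/6J mice 7 to 10 days old, with cells prepared separately for each biological replicate. They were used at passage 2, differentiated from day 3, and deprived of serum on day 10 for 24 h. Both peptides were then given at 100 nM for 4 h, so dose and time match, and total RNA (100 ng) was hybridised to Affymetrix Mouse Gene 2.0 ST arrays. Vehicle-treated cultures and cultures given PTH(1-36) at 100 nM for 4 h, 3 arrays each, are used below to define which genes respond. hPTH(7-34), also at 100 nM for 4 h on 3 arrays, lacks the first residues and is used for scale.

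PTH acts on osteoblasts through Pth1r, a receptor that couples to the stimulatory G protein, adenylyl cyclase and cyclic AMP, and also to Gq, phospholipase C and protein kinase C. The first residues of the hormone are needed to activate the receptor, and the far end of the 1-34 fragment contributes to binding. hPTH(1-31) has been described as a fragment that raises cyclic AMP with little activation of protein kinase C in some cell systems. In osteoblasts the cyclic AMP route phosphorylates the transcription factor CREB, which binds the cyclic AMP response element and switches on early genes such as those of the NR4A nuclear receptors. The comparison therefore asks what residues 32 to 34 add to the transcript response to 100 nM at 4 h, and within which limits a difference can be bounded. Each peptide was given at that dose and time only. A difference at lower doses or other times was not tested, and the bounds below do not cover it.

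Promoters of 3 genes that rose strongly with both peptides are shown, because they carry the core of the cyclic AMP response element and are described below. Each runs 250 bases before to 50 bases after the annotated start (RefSeq, GRCm38.p6), 5′ to 3′ on the gene's strand, and capitals mark the core TGACG or its reverse complement CGTCA.
Nr4a2, chr2:57123954-57124253, minus strand: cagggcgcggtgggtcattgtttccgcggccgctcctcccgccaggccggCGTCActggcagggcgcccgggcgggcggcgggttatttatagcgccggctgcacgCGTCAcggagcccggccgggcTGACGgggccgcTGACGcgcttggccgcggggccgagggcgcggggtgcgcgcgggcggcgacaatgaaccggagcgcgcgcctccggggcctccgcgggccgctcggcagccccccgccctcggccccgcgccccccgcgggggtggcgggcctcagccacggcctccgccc
Nr4a3, chr4:48045055-48045354, plus strand: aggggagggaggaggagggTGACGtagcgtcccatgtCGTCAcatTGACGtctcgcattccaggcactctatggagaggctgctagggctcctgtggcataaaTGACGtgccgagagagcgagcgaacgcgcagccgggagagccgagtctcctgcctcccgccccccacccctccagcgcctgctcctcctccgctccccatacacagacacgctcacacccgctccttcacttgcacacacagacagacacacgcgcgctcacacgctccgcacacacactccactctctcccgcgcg
Il6, chr5:30012864-30013163, plus strand: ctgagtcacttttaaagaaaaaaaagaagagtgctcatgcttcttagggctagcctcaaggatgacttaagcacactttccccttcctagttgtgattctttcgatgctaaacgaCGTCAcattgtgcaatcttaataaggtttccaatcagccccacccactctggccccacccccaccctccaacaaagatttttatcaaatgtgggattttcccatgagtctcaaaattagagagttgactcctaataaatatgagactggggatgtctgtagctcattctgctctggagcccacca
The core occurs 4 times in the windows of Nr4a2 and Nr4a3 and 1 time in that of Il6. Of all 32851 RefSeq windows of this length, 20.8% held at least 1 core on either strand, and of the 20611 windows of tested genes 24.2% did. The share was 35.6% of 787 windows of genes raised by PTH(1-36) and 23.4% of 833 windows of genes lowered by it. The full palindrome TGACGTCA, in which both forms of the core overlap, was in 1.79% of all windows, in 2.32% of those of tested genes and in none of the 3 shown. Of the 20 genes that changed most with PTH(1-36), 14 had a window in the table and 5 of these held a core. Besides the 3 shown these were Cbarp, which rose, and Mtss2, which fell, each in some of its windows only. Tnfsf11, Vdr and Kcnk10, which rose strongly, held none. This count is of genes, some with several windows, and cannot be set against the shares of windows. A match describes letters in a window, not a binding site.

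The arrays of both peptides were alike in distribution, with medians between 3.54 and 3.61 log2 units. Across genes, arrays of different peptides correlated at r = 0.992 to 0.993, as did arrays of the same peptide, and with vehicle arrays at r = 0.986 to 0.987. Some osteoblast genes had high signals, with means of 12.28 and 12.25 for Sparc, a matrix glycoprotein, and of 9.50 and 9.49 for Alpl, the alkaline phosphatase, with hPTH(1-31) and hPTH(1-34). Others were lower, with means in the same order of 5.30 and 5.37 for Sp7, 6.11 and 6.11 for Pth1r, and 7.54 and 6.37 for Ibsp. Runx2 and Spp1 were not analysed here, and Bglap (osteocalcin) lay near the array medians. Macrophage genes were also high, such as Lyz2 at 12.2 and Cd68 at 11.2 with either peptide, so the cultures were mixed. In such cultures fewer cells of a type and less RNA per cell cannot be told apart. The mean level of 23 macrophage and osteoclast markers was 7.93 to 8.004 on the hPTH(1-31) arrays and 7.93 to 8.03 on the hPTH(1-34) arrays.

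No gene was called different between hPTH(1-31) and hPTH(1-34). Of 22180 genes, 0 passed an adjusted p under 0.05 (0% of genes; limma, Benjamini-Hochberg), and the smallest adjusted p was 0.775. At an unadjusted p under 0.05 there were 994 genes (4.48%), 498 higher (2.25%) and 496 lower (2.24%) with hPTH(1-31). For scale, the same test called 2409 genes (10.9%) between hPTH(7-34) and hPTH(1-34), also with 3 arrays each.

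A p that misses the threshold does not show that peptides act alike, so each difference was also bounded. A gene was counted as held within 1.5-fold when a pair of one-sided tests against the limits of -0.58 and +0.58 log2 units (TOST, on the limma fit) passed together at an adjusted p under 0.05. By that rule 18971 of 22180 genes (85.5%) were held within 1.5-fold and 21970 (99.1%) within 2-fold, while 4221 (19%) were held within a stricter limit of 25% (higher over lower mean). The 95% interval itself, which is a little stricter, lay inside the 1.5-fold limits for 17717 genes. How narrowly a gene was bounded went with its signal. Below a mean signal of 3 log2 units 70.7% of 6341 genes were held within 1.5-fold, with a median interval half-width of 0.39 log2 units, and between 5 and 7 it was 97.2% of 5246 genes with a half-width of 0.25. Of the 969 genes with a signal of 9 or more, 99.9% were held within 1.5-fold and 77.1% within 25%, with a half-width of 0.18. Of the 3209 genes not held within 1.5-fold, 1855 had a mean signal under 3 and 1195 one of 3 to 5.

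**Figure D1:**
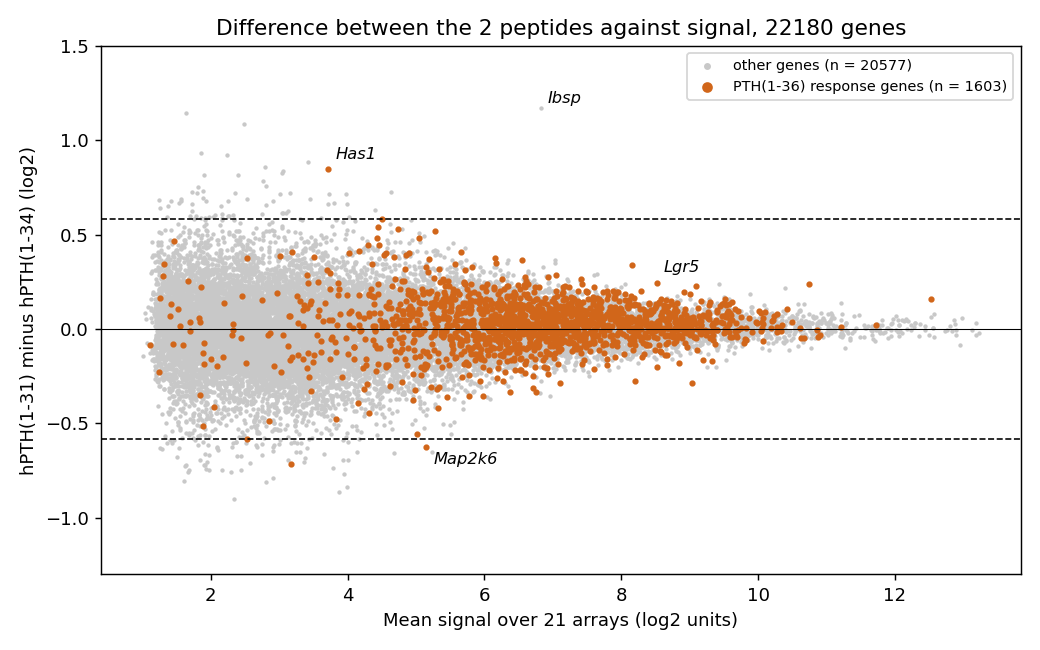
Difference between hPTH(1-31) and hPTH(1-34) (log2, y axis) against the mean signal over all 21 arrays (log2 units, x axis) for 22180 genes, with the 1603 genes that responded to PTH(1-36) in orange and dashed lines at the 1.5-fold limits. The cloud narrows as signal rises, and the few orange points beyond the lines include Has1 and Map2k6.

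To ask about genes that an intact hormone fragment does change, response genes were taken from PTH(1-36) against vehicle, a contrast that uses none of the 6 arrays compared. There were 1603 such genes (7.23% of all), 817 higher (3.68%) and 786 lower (3.54%). Between hPTH(1-31) and hPTH(1-34) 0 of them were called, and 1535 of the 1603 (95.8%) were held within 1.5-fold, 1600 within 2-fold and 591 within 25%. The share is set beside 85.5% over all genes, but response genes were brighter and were chosen with the same estimate of spread, so no more is read from it. An unadjusted p under 0.05 was reached by 95 response genes (5.93%, against 4.48% of all genes), and their 3 arrays of one peptide lay beyond all 3 of the other for 188 (11.7%, against 8.32% of all genes). The share held fell with the size of the response. The bound held for 894 of 902 genes changed under 1.5-fold by PTH(1-36), for 463 of 499 changed 1.5- to 2-fold, for 157 of 174 changed 2- to 4-fold, and for 21 of 28 changed 4-fold or more. The median interval half-width rose over the same classes, at 0.21, 0.26, 0.27 and 0.33 log2 units. So did the median size of the difference between the peptides, at 0.06, 0.09, 0.10 and 0.19 log2 units. A small change was called as a response only where the spread was small, which also eases the bound. Why the share fell was not tested, and the fall is not read as an effect of response size.

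The size of the whole response was summarised per array as the mean change from the vehicle mean over the response genes, signed by the PTH(1-36) direction. With hPTH(1-31) the arrays scored 0.67, 0.66 and 0.70 log2 units. With hPTH(1-34) they scored 0.65, 0.66 and 0.64. The groups overlapped, and the means of 0.673 ± 0.021 and 0.653 ± 0.013 (SD, n = 3) differed by 0.020 (95% interval -0.019 to 0.059), which is 3.10% of the hPTH(1-34) response with an interval from -2.91% to 9.12%. Single arrays moved this value, to 0.009 without hPTH(1-31) replicate 3 and to 0.029 without hPTH(1-31) replicate 2. With hPTH(7-34) the arrays scored 0.04 to 0.07, below every array of hPTH(1-31) and hPTH(1-34).

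Split by direction, the genes raised by PTH(1-36) scored 0.80, 0.75 and 0.80 with hPTH(1-31) and 0.76, 0.74 and 0.72 with hPTH(1-34). The lowest hPTH(1-31) array lay just below the highest hPTH(1-34) array, and the difference was 0.048 (95% interval -0.005 to 0.100), or 6.46% of the hPTH(1-34) value. The genes lowered by PTH(1-36) scored 0.53, 0.55 and 0.59 with hPTH(1-31) and 0.55, 0.59 and 0.56 with hPTH(1-34), a difference of -0.008 (95% interval -0.070 to 0.054). Over the 202 response genes changed at least 2-fold the arrays scored 1.62, 1.61 and 1.65 with hPTH(1-31) and 1.58, 1.58 and 1.54 with hPTH(1-34). These groups did not overlap, and the difference of 0.060 (95% interval 0.006 to 0.114) was 3.83% of the hPTH(1-34) value. The intervals of the other scores reached both signs, and none was adjusted. Most of these genes had risen, 133 of the 174 changed 2- to 4-fold and 27 of the 28 changed 4-fold or more. This score therefore largely shares its genes with that of the raised genes. Of the 817 genes that rose, 555 had a higher mean with hPTH(1-31) and 255 a lower one, with a median difference of +0.04 log2 units. Of the 786 that fell, 430 had a higher mean with hPTH(1-31), where over all genes 11364 of 22180 (51.2%) did, with a median difference of +0.003. Bright genes leaned the same way, with 1970 of 3434 genes higher at a signal of 7 to 9 and 561 of 969 at 9 or more. These counts pool response genes with all others, and bright genes that did not respond were not counted apart.

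**Figure D2:**
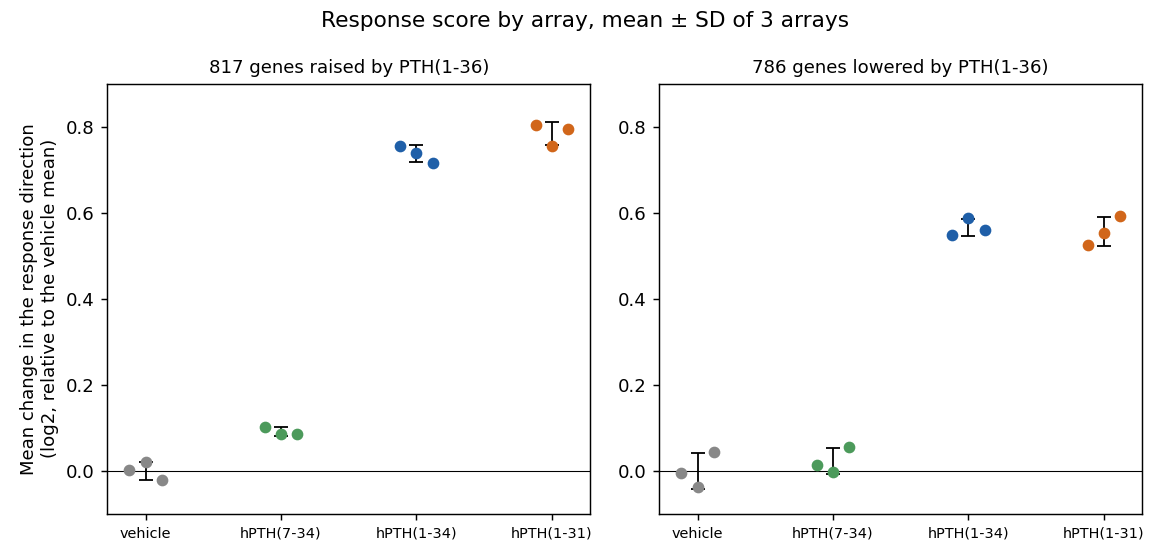
Response score of each array (points; bars give mean ± SD of 3 arrays), the mean change from vehicle in the response direction in log2 units, for genes raised (left) and lowered (right) by PTH(1-36). Both hPTH(1-31) and hPTH(1-34) arrays sit between 0.53 and 0.80, far above vehicle and hPTH(7-34) arrays.

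The nuclear receptors of the NR4A family, early targets of CREB, rose with both peptides, and their means were higher with hPTH(1-31) without a call. Nr4a3 had 7.29, 7.17 and 7.43 log2 units on the hPTH(1-31) arrays and 6.72, 7.17 and 7.01 on the hPTH(1-34) arrays, against 3.17, 3.82 and 3.12 with vehicle. The lowest hPTH(1-31) value equalled the highest hPTH(1-34) value. The difference of +0.33 ± 0.19 (log2, SE) allowed a ratio from 0.955 to 1.65 (95% interval), and Nr4a3 was not held within 1.5-fold (TOST adjusted p = 0.104). Nr4a2 was at 9.17, 8.95 and 9.24 with hPTH(1-31) and at 9.03, 8.99 and 8.84 with hPTH(1-34), a difference of +0.17 ± 0.15 that was held within 1.5-fold (TOST adjusted p = 0.00925). Nr4a1 was at 7.96, 8.09 and 8.15 with hPTH(1-31) and at 7.94, 8.08 and 7.36 with hPTH(1-34), where the third array stood below the other two. Its difference was +0.27 ± 0.16, held within 1.5-fold (TOST adjusted p = 0.0428).

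Of 27 measured genes known to answer cyclic AMP and CREB early, 0 were called between the peptides and 26 were held within 1.5-fold (85.5% over all genes), all but Nr4a3. Against vehicle, 20 rose and 0 fell with hPTH(1-31), and 19 rose and 2 fell with hPTH(1-34), 2 contrasts that share the vehicle arrays (over all genes 4.38% rose and 4.32% fell with hPTH(1-31), and 3.9% rose and 4.74% fell with hPTH(1-34)). The median difference between the peptides was +0.11 log2 units over this list and +0.003 over all genes, and 19 of the 27 had a higher mean with hPTH(1-31). Response genes that rose leaned the same way, with a median of +0.04. Of these 817 genes, 555 (67.9%) had a higher mean with hPTH(1-31) and 255 a lower one. The count of higher means is therefore not read as particular to this list. Crem, whose short products repress CREB targets, was at 5.39, 5.44 and 5.02 with hPTH(1-31) and at 5.27, 5.30 and 5.22 with hPTH(1-34). Fos, a subunit of the AP-1 transcription factor, was at 5.79, 5.34 and 5.37 with hPTH(1-31) and at 5.66, 5.64 and 5.29 with hPTH(1-34). Both genes had overlapping groups and were held within 1.5-fold. Pde4d, a phosphodiesterase that breaks down cyclic AMP, was the lowest of the list at -0.26 ± 0.13 (unadjusted p = 0.0623 by limma), and was also held.

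The receptor fell with both peptides (limma adjusted p = 5.07e-06 with hPTH(1-31) and 5.45e-06 with hPTH(1-34)). Pth1r was at 6.20, 6.17 and 5.95 with hPTH(1-31) and at 6.40, 6.04 and 5.89 with hPTH(1-34), against 7.20, 7.30 and 7.12 with vehicle. The difference of -0.003 ± 0.123 (log2, SE) bounded the ratio between 0.834 and 1.19. Of 27 genes of cyclic AMP and receptor feedback, all were held within 1.5-fold (85.5% over all genes) and 0 were called. Arrb1, the arrestin that uncouples receptors, was at 7.35, 7.15 and 7.21 with hPTH(1-31) and at 7.52, 7.40 and 7.45 with hPTH(1-34), so the groups did not overlap, but at -0.22 ± 0.07 it was not called (limma adjusted p = 0.999). Pde3a, another phosphodiesterase, was at +0.22 ± 0.09, with groups that did not overlap and the same result.

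The genes of the other arm of the receptor were of interest because the peptides have been described as unequal there. Of 29 measured genes of the phospholipase C and protein kinase C machinery, 0 were called and all 29 were held within 1.5-fold, with differences from -0.15 (Prkci, an atypical protein kinase C) to +0.24 (Plcb2, a phospholipase C). Over all genes 85.5% were held, and 97.2% of those with a signal of 5 to 7. The count is therefore not read as particular to this list. Prkca, a classical protein kinase C, was at 7.61, 7.56 and 7.54 with hPTH(1-31) and at 7.57, 7.50 and 7.60 with hPTH(1-34). Plcb1, a phospholipase C downstream of Gq, was at 5.64, 5.72 and 5.79 against 5.63, 5.71 and 5.53. These are transcript levels and say nothing of the activity of the enzymes.

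Of 34 measured genes that protein kinase C, calcium or ERK signals raise in many cell types, 0 were called between the peptides, and 30 (88.2%) were held within 1.5-fold, near the 85.5% over all genes. The other 4 were Egr3, Il6, Cxcl2 and Mmp3. Against vehicle 13 rose and 2 fell with hPTH(1-31), and 12 rose and 2 fell with hPTH(1-34), where over all genes 4.38% rose and 4.32% fell with hPTH(1-31), and 3.9% rose and 4.74% fell with hPTH(1-34). The median difference between the peptides was +0.04. Rcan1, a calcineurin regulator that calcium raises, was at 6.18, 6.30 and 6.37 with hPTH(1-31) and at 6.25, 6.05 and 5.91 with hPTH(1-34), not called against vehicle with either (limma adjusted p = 0.676 and 0.796). Egr1, an early target of ERK, was lower with both than with vehicle (-0.45 with hPTH(1-31) and -0.40 with hPTH(1-34), limma adjusted p = 0.0170 and 0.0354). Its ratio between the peptides was bounded from 0.818 to 1.14. Ier2, an immediate early gene, was at 5.48, 5.36 and 5.23 with hPTH(1-31) and at 4.99, 5.22 and 5.02 with hPTH(1-34), which did not overlap, and was held within 1.5-fold (+0.28 ± 0.13, unadjusted p = 0.0484 by limma). Egr3 was at 4.25, 4.51 and 4.77 with hPTH(1-31) and at 4.87, 4.60 and 4.99 with hPTH(1-34), a difference of -0.31 ± 0.15 that just missed the bound (TOST adjusted p = 0.0516).

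**Figure D3:**
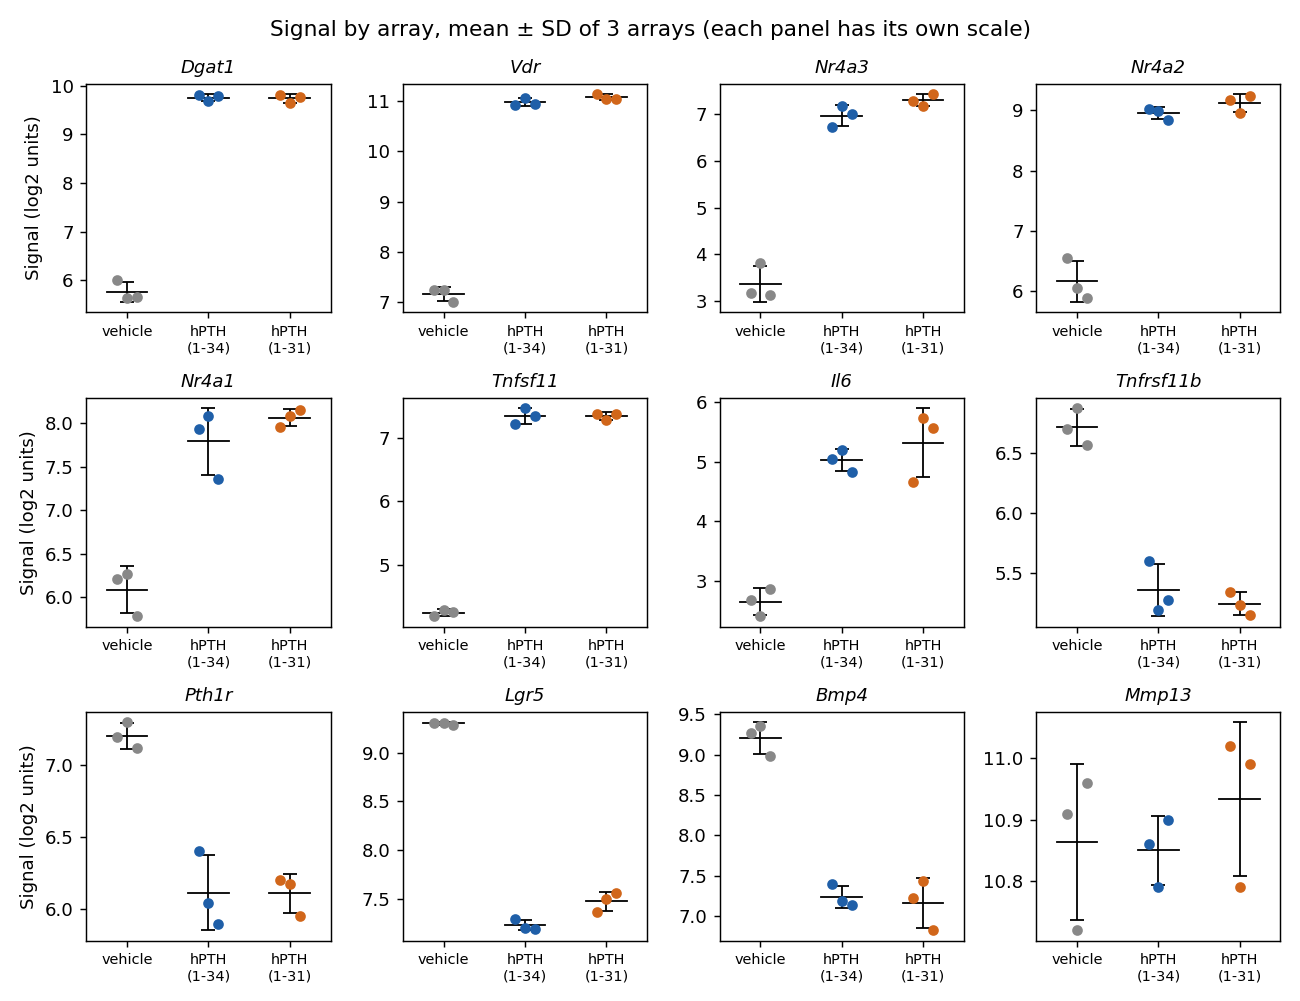
Signal (log2 units, y axis, a scale of its own in each panel) of 12 genes on the 3 arrays each of vehicle, hPTH(1-34) and hPTH(1-31) (points), with mean ± SD. For Dgat1, Vdr, Tnfsf11 and Pth1r the points of both peptides overlap far from vehicle, while the Lgr5 points do not overlap and Il6 spreads most with hPTH(1-31).

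Genes through which osteoblasts steer osteoclasts gave 0 calls between the peptides, and the mean of RANKL was nearly equal with both. Tnfsf11, the osteoclast-forming cytokine RANKL, was at 7.39, 7.29 and 7.39 with hPTH(1-31), 7.23, 7.48 and 7.35 with hPTH(1-34), and 4.18, 4.28 and 4.25 with vehicle. Its difference between the peptides was +0.003 ± 0.191, which bounded the ratio between 0.759 and 1.32 (TOST adjusted p = 0.00626). Tnfrsf11b, its decoy receptor osteoprotegerin, was at 5.34, 5.23 and 5.15 with hPTH(1-31) and at 5.60, 5.19 and 5.27 with hPTH(1-34), against 6.70, 6.87 and 6.56 with vehicle. The groups overlapped, and the ratio lay between 0.738 and 1.16. Csf1, the macrophage growth factor, was bounded between 0.861 and 1.10. Il6, a cytokine that also promotes osteoclasts, was at 4.66, 5.74 and 5.56 with hPTH(1-31) and at 5.04, 5.20 and 4.83 with hPTH(1-34), so the first hPTH(1-31) array was below all of the hPTH(1-34) arrays and the other two above. Its difference of +0.30 ± 0.25 left a ratio anywhere between 0.858 and 1.76, and it was not held within 1.5-fold (TOST adjusted p = 0.136). Of the 15 genes of this list 13 were held (85.5% over all genes), and Il11 was the other exception.

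Other strongly raised genes were bounded more narrowly. Dgat1, which makes triacylglycerol, was at 9.81, 9.64 and 9.77 with hPTH(1-31) and at 9.81, 9.68 and 9.78 with hPTH(1-34), against 6.00, 5.63 and 5.65 with vehicle. The ratio between the peptides was bounded from 0.855 to 1.14 (TOST adjusted p = 8.83e-05). Vdr, the vitamin D receptor, was at 11.14, 11.05 and 11.05 with hPTH(1-31) and at 10.93, 11.07 and 10.95 with hPTH(1-34), against 7.24, 7.24 and 7.00, a ratio from 0.920 to 1.24. Lrrc32, which tethers latent TGF-beta to the cell surface, was at 9.98, 9.94 and 9.84 with hPTH(1-31) and 9.71, 9.81 and 9.68 with hPTH(1-34). Those groups did not overlap, but the difference of +0.19 ± 0.10 was not called and was held within 1.5-fold (TOST adjusted p = 0.00102). Smim3, a small membrane protein, likewise had all hPTH(1-31) values (8.17 to 8.21) above the hPTH(1-34) values (7.84 to 8.12). Of the 10 genes with the highest change under PTH(1-36), 9 had a higher mean with hPTH(1-31), all but Dgat1, and 8 were held within 1.5-fold, all but Nr4a3 and Il6.

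Genes that the hormone lowers were bounded too. All 10 of the genes with the lowest change under PTH(1-36) were held within 1.5-fold, 6 with a higher mean and 4 with a lower mean with hPTH(1-31). Bmp4 and Bmp2, bone morphogenetic proteins, differed by -0.08 ± 0.15 and +0.03 ± 0.13 (log2, SE). Rspo3 and Fzd5, an R-spondin and a Wnt receptor, differed by -0.16 ± 0.08 and -0.08 ± 0.08. Lgr5, the receptor for R-spondins, was the only one of these 20 genes with an unadjusted p under 0.05 between the peptides (unadjusted p = 0.00340 by limma). It was at 7.36, 7.49 and 7.56 with hPTH(1-31) and at 7.29, 7.20 and 7.19 with hPTH(1-34), against 9.31, 9.31 and 9.29 with vehicle. The groups did not overlap. The difference of +0.24 ± 0.07 was not called (limma adjusted p = 0.999) and bounded the ratio between 1.07 and 1.31, so that Lgr5 was held within 1.5-fold (TOST adjusted p = 0.000352).

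**Figure D4:**
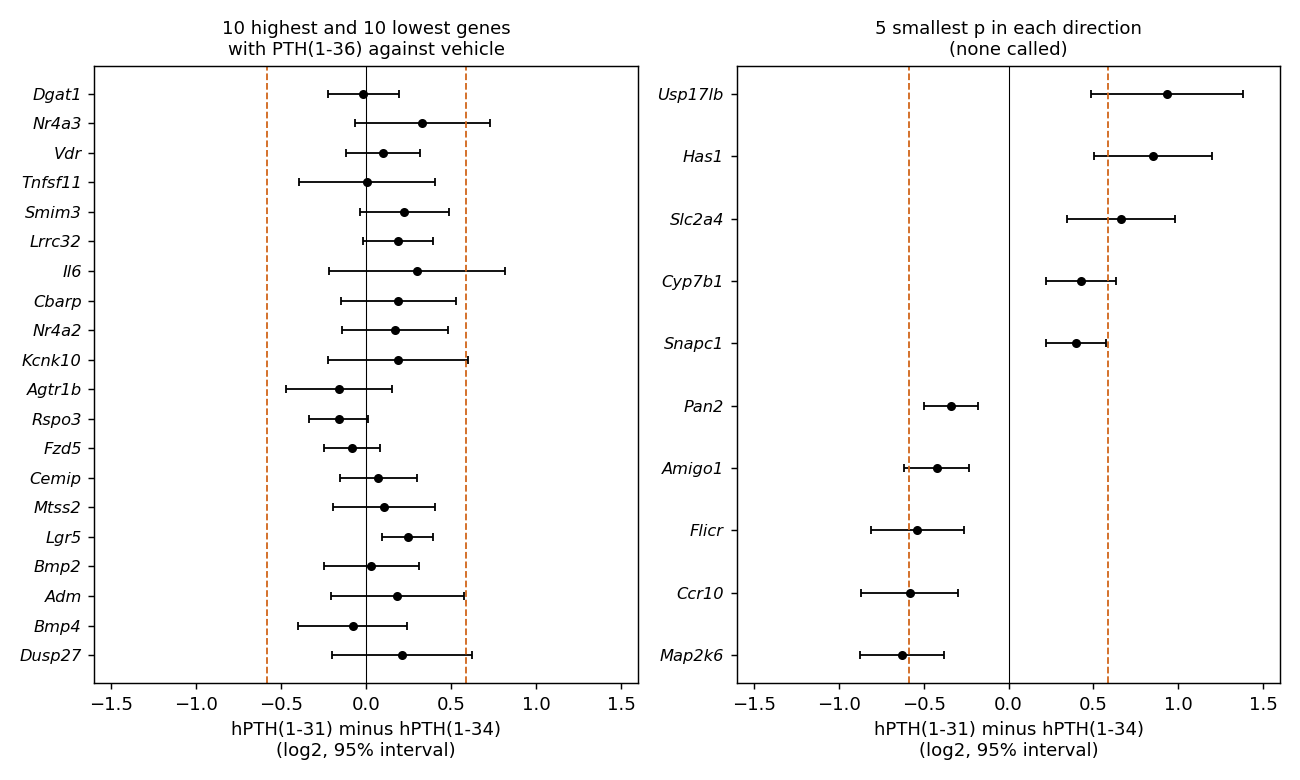
Difference between hPTH(1-31) and hPTH(1-34) with its 95% interval (log2, x axis) for the 10 highest and 10 lowest genes under PTH(1-36) (left, ordered by that change) and for the 5 genes of smallest p in each direction (right), with dashed lines at the 1.5-fold limits. On the left the intervals of Nr4a3 and Il6 pass the upper line clearly, and those of Kcnk10 and Dusp27 by a little, since the one-sided tests that held them are less strict than the interval.

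Other gene groups gave 0 calls each. Their counts of genes held stand beside 85.5% over all genes. Of 40 Wnt pathway genes 37 were held within 1.5-fold, with Wnt6, Lef1 and Notum the exceptions. Lef1, a transcription factor of the pathway, was at 5.61, 4.99 and 5.07 with hPTH(1-31) and at 4.73, 4.74 and 4.76 with hPTH(1-34), a difference of +0.48 ± 0.18 (unadjusted p = 0.0165 by limma). At an unadjusted p under 0.05 the list held 2 genes higher with hPTH(1-31), Lef1 and Lgr5, and 2 lower, Znrf3 at -0.29 ± 0.13 and Wnt6 at -0.34 ± 0.16 (unadjusted p = 0.0382 and 0.0483 by limma). Of 37 TGF-beta and BMP genes 36 were held, all but Bmp3, a BMP that counteracts bone formation, at -0.40 ± 0.12 (unadjusted p = 0.00505 by limma). Of 32 growth factors and receptors, 17 circadian clock genes, 18 cholesterol synthesis genes, 14 osteocyte genes and 25 genes of unfolded protein and amino acid stress, all were held. So were 21 of 22 genes of glucose uptake and glycolysis, 20 of 21 of vitamin D, calcium and phosphate handling, 21 of 22 interferon-stimulated genes, 21 of 23 matrix remodelling enzymes and 19 of 22 lipid droplet and triacylglycerol genes. Of 30 inflammatory and acute phase genes 23 (76.7%) were held, and the other 7 were Il6, Cxcl2, Ccl20, Nos2, Saa2, Saa3 and Csf2. Cxcl14, a chemokine, was at 10.31, 10.51 and 10.43 with hPTH(1-31) and at 10.82, 10.85 and 10.44 with hPTH(1-34), a difference of -0.29 ± 0.13 that was held.

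Of 33 cell cycle genes 32 were held within 1.5-fold (85.5% over all genes) and 0 were called, with a median difference of +0.09 log2 units. The exception, Tyms, had the largest difference in size of the list and was lower with hPTH(1-31), at -0.32 (unadjusted p = 0.0856 by limma). Means were higher with hPTH(1-31) for 22 of the 33 genes and lower for 11. Bub1, a mitotic checkpoint kinase, was at 6.22, 6.26 and 6.32 with hPTH(1-31) and at 5.90, 6.12 and 5.92 with hPTH(1-34), against a vehicle mean of 6.33. Its groups did not overlap, and its difference of +0.29 ± 0.09 (unadjusted p = 0.00482 by limma) was not called. For 8 of the 33 genes the 3 arrays of one peptide lay beyond the other 3, where this was so for 8.32% of all genes, and 3 had an unadjusted p under 0.05, all higher with hPTH(1-31) (2.25% of all genes). Whether these genes moved as a set was not tested.

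**Figure D5:**
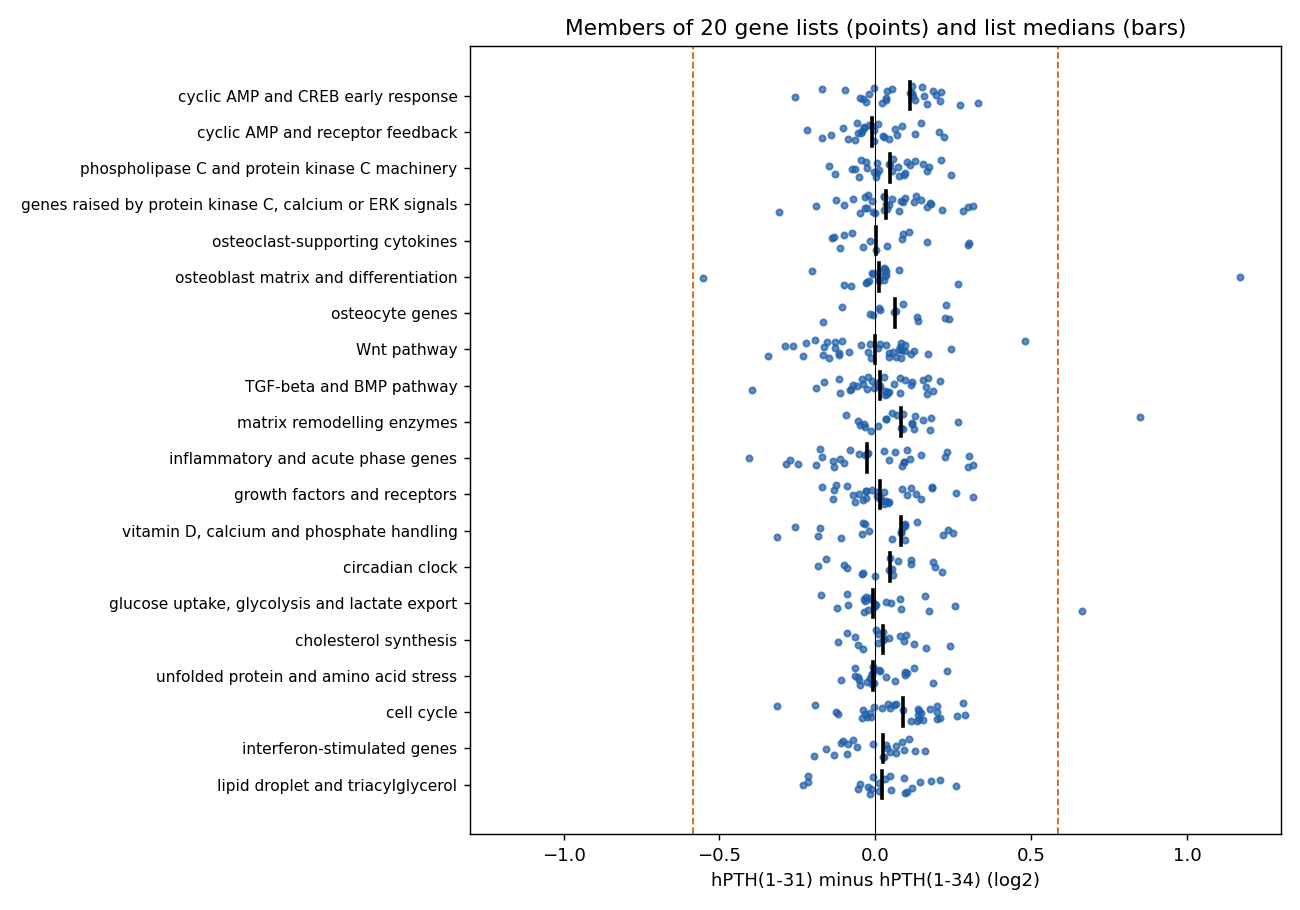
Difference between hPTH(1-31) and hPTH(1-34) (log2, x axis) of each measured member of 20 gene lists (points), with list medians (black bars) and the 1.5-fold limits (dashed lines). List medians lie between -0.03 and +0.11, and Ibsp, Has1 and Slc2a4 are the members beyond the lines.

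Osteoblast matrix and differentiation genes held the largest difference in size of the whole table, in a gene that varied widely between cultures. Ibsp, bone sialoprotein, was at 9.25, 7.39 and 5.98 with hPTH(1-31) and at 6.96, 5.47 and 6.68 with hPTH(1-34), while the vehicle arrays were at 7.28, 6.52 and 6.15. The groups overlapped, and the difference of +1.17 ± 0.59 (log2, SE) allowed a ratio from 0.956 to 5.30, so 3 arrays a group did not settle its direction. Bglap was at 3.51, 3.14 and 2.61 with hPTH(1-31) and at 3.79, 3.55 and 3.58 with hPTH(1-34), a difference of -0.55 ± 0.24 in the opposite direction and not called (unadjusted p = 0.0328 by limma). The other 19 of the 21 measured genes were held within 1.5-fold (85.5% over all genes), among them Alpl and Col1a1. Sp7, the transcription factor osterix, was at 5.47, 5.29 and 5.13 with hPTH(1-31) and at 5.45, 5.46 and 5.21 with hPTH(1-34), a ratio between 0.779 and 1.15. Mmp13, a collagenase, was bounded between 0.912 and 1.23, and Sost, the Wnt inhibitor sclerostin, between 0.691 and 1.15, although Sost was dim.

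Markers of other cell types gave 0 calls. All 23 macrophage and osteoclast markers were held within 1.5-fold, as were 13 of 15 for endothelium, 14 of 16 for cartilage, 14 of 16 for muscle and 8 of 12 for fat (85.5% over all genes). Col10a1, a collagen of hypertrophic cartilage, was at 4.16, 3.84 and 4.20 with hPTH(1-31) and at 3.67, 3.32 and 3.58 with hPTH(1-34), which did not overlap (+0.54 ± 0.16, unadjusted p = 0.00358 by limma, not called). The mean level of the 16 cartilage markers was 5.80 to 5.96 with hPTH(1-31) and 5.81 to 5.90 with hPTH(1-34).

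The genes with the smallest p were examined as the likeliest places for a difference, with none of them called. Has1, a hyaluronan synthase, was at 4.69, 4.73 and 4.62 with hPTH(1-31) and at 3.66, 4.00 and 3.83 with hPTH(1-34), against 3.47, 3.62 and 3.18 with vehicle. It was 1.80-fold higher with hPTH(1-31) (+0.85 ± 0.16 log2, SE; 95% interval of the ratio 1.42 to 2.29; unadjusted p = 6.99e-05, limma adjusted p = 0.775). All 3 arrays of hPTH(1-31) lay above all 3 of hPTH(1-34), and Has1 was called against vehicle with hPTH(1-31) (limma adjusted p = 3.56e-05) and not with hPTH(1-34) (limma adjusted p = 0.164). Map2k6, a kinase that activates p38, had the smallest p, 4.96e-05 by limma, and an adjusted p of 0.775. It was at 4.10, 3.82 and 4.01 with hPTH(1-31) and at 4.60, 4.68 and 4.53 with hPTH(1-34), against 5.81, 5.43 and 5.74 with vehicle. Both peptides lowered it (limma adjusted p = 1.30e-08 and 5.12e-06), and the 3 arrays of hPTH(1-31) lay below all 3 of hPTH(1-34), a difference of -0.63 ± 0.12 with a ratio from 0.545 to 0.769.

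The other 8 genes chosen by p were Snapc1, Cyp7b1, Usp17lb and Slc2a4, higher with hPTH(1-31), and Amigo1, Pan2, Ccr10 and Flicr, lower. For all 10 the arrays of the peptides did not overlap, which their choice by p makes likely. Slc2a4, the insulin-responsive glucose transporter, was at 4.47, 4.61 and 4.52 with hPTH(1-31) and at 3.60, 3.95 and 4.06 with hPTH(1-34), near the vehicle values of 3.84, 3.58 and 3.99. Cyp7b1, an oxysterol hydroxylase, was at 5.81, 5.79 and 5.60 with hPTH(1-31), near the vehicle values of 5.95, 5.77 and 5.64, and at 5.28, 5.31 and 5.33 with hPTH(1-34). Pan2, a subunit of an mRNA deadenylase, was at 5.97, 5.86 and 5.94 with hPTH(1-31), 6.29, 6.23 and 6.26 with hPTH(1-34) and 6.56, 6.63 and 6.51 with vehicle. Pan2 and Snapc1 show that a small p and a bound can go together, since both were held within 1.5-fold (TOST adjusted p = 0.00407 and 0.0242). Usp17lb, a deubiquitinase gene, was very dim, at 2.54, 2.60 and 2.48 against 1.39, 1.48 and 1.95.

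Among response genes 68 were not held within 1.5-fold, 42 with a higher mean with hPTH(1-31) and 26 with a lower one. Of these, 47 had a mean signal under 5, and 11 differed by less than 0.25 log2 units and missed the bound through their spread. Only Has1, Slc22a2 and Map2k6 differed by 1.5-fold or more in their means. Besides Has1, Slc22a2, an organic cation transporter that was lower with hPTH(1-31) at 2.76, 2.69 and 2.57 against 3.16, 3.60 and 3.40, was not held within 2-fold (TOST adjusted p = 0.124). Gzmd was the third gene not held within 2-fold, at a mean signal of 1.88. Apold1, a gene of vascular cells, was at 5.90, 5.55 and 6.06 with hPTH(1-31) and 5.55, 5.41 and 4.80 with hPTH(1-34), where the third hPTH(1-34) array was low (+0.58 ± 0.22). Hey1, a target of Notch and BMP signals, was at 5.03, 4.77 and 4.86 with hPTH(1-31) and 4.33, 4.18 and 4.53 with hPTH(1-34), near the vehicle mean of 4.40. It differed by +0.54 ± 0.13 (unadjusted p = 0.000455 by limma) and was not called. Of a panel of 24 genes of the PTH response and of bone, 22 were held within 1.5-fold (85.5% over all genes), all but Nr4a3 and Il6, and all 24 within 2-fold (99.1% over all genes).

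For scale, the other pairs of intact fragments at 100 nM and 4 h were tested in the same way, 3 pairs in all that share arrays. PTH(1-36) against hPTH(1-34) gave 1 gene (0.00451%), Prg4, the joint lubricant lubricin, which was lower with PTH(1-36) by 1.01 ± 0.13 log2 units (limma adjusted p = 0.0144) and differed by -0.31 ± 0.13 between hPTH(1-31) and hPTH(1-34). PTH(1-36) against hPTH(1-31) gave 1 gene (0.00451%), Map2k6, at +0.83 ± 0.12 (limma adjusted p = 0.0330). This contrast and the direct one share the 3 hPTH(1-31) arrays, and the Map2k6 call was lost when any 1 array of hPTH(1-31) or hPTH(1-34) was left out. The 1 call against hPTH(1-34) was lost without hPTH(1-34) replicate 1 or replicate 2, and the count was 2 without hPTH(1-31) replicate 2 and 3 without hPTH(1-34) replicate 3. The share of genes held within 1.5-fold was 83.9% for PTH(1-36) against hPTH(1-34), 84.7% for PTH(1-36) against hPTH(1-31), and 85.5% for hPTH(1-31) against hPTH(1-34). With p-values adjusted over the 3 pairs jointly, the direct comparison still gave 0 calls.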

How the data were processed

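Gene expression was measured on 21 Affymetrix Mouse Gene 2.0 ST arrays, 3 for each of 7 treatments, from total RNA. The authors deposited 1 normalized signal per cluster and array, taken as log2 here because RMA and Affymetrix Expression Console stand in the submitters' processing notes and the range fits. Steps, versions and settings are not given in the sources used here, and every fold rests on the log2 reading. Values ran from 0.25 to 13.6. Precision is limited by the number of arrays.

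Of 41345 transcript clusters, 23521 had 1 gene symbol in the platform annotation, 1814 several and 16010 none there. For genes with several clusters the brightest was used, which left 22180 genes. A single model of 7 groups over all 21 arrays was fitted with lmFit and eBayes (limma 3.58.1 under R 4.3.3). Two-sided p-values were adjusted within each contrast over all genes (Benjamini-Hochberg) and called at 0.05. TOST used the same standard errors, with limits of 1.5-fold. Differences are log2 with SE, group values are means with SD, and intervals are 95% and not adjusted. The response score has no p. The calls and the bounds were also run on simulated data with independent normal values for each gene and array. That run holds no effects shared between arrays or genes, and nothing here rests on it. p-values measure the spread between separately prepared cultures.

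Named genes came from a rule: the 5 smallest p in each direction where fewer than 5 were called, the 10 highest and 10 lowest genes of PTH(1-36) against vehicle, a panel of 24, up to 3 members of each of 27 lists, and the 5 response genes of largest difference, without predicted genes and small RNAs. Prg4, Gzmd, Wnt6, Notum, Alpl, Sparc, Col1a1, Lyz2, Cd68 and list members named as not held within the limit fall outside it and were chosen after their values were seen. The comparison, members and lists were chosen with earlier results of these data known. Alternatives were the 6 arrays alone, a replicate block, 2 normalizations, a signal filter, another cluster choice, another prior, other limits and each of the 6 arrays left out. Sequences are from RefSeq (GRCm38.p6). The amino acid sequences of the peptides were not used here.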

Additional observations from a re-analysis of the deposited data

How the results depend on the processing

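Under every alternative run (the 6 arrays alone, the replicate block, both normalizations, the signal filter, the mean of clusters, the trended prior, all clusters, joint adjustment and each of the 6 arrays left out) hPTH(1-31) against hPTH(1-34) gave 0 calls by limma, with 912 to 1126 genes at an unadjusted p under 0.05 where all 22180 were fitted, 475 after the signal filter and 1969 of 41345 clusters. Joint adjustment does not change unadjusted values. Genes held within 1.5-fold numbered 18971, and 17039 to 17250 with 1 array left out. They were 4221 at a limit of 25%, and 11798 of the 12217 genes left by a filter on a mean signal of at least 4. Response genes held numbered 1535 of 1603, with 1482 to 1497 when 1 array was left out, 591 at 25%, and 178 of the 202 changed at least 2-fold. The score difference of 0.020 ran from 0.009 without hPTH(1-31) replicate 3 to 0.029 without hPTH(1-31) replicate 2, and was 0.060 over the 202 genes changed at least 2-fold. With median-centred columns PTH(1-36) against hPTH(1-34) gave 2 genes and PTH(1-36) against hPTH(1-31) gave 0. With the trended prior, and with the signal filter, the former gave 3. With 1 hPTH(1-31) or hPTH(1-34) array left out the former gave 0 to 3 genes and the latter 0, and no PTH(1-36) array was left out. Of 1499 values of named genes under 13 settings, 1498 moved by less than 1 SD and 0 became called, with G0s2 the exception under the mean of clusters (+0.09 in place of +0.26). The 6 arrays alone, the replicate block, the signal filter and the trended prior cannot move a difference of means. For these settings only the p could change, so that part of the count was fixed in advance. Under the mean of clusters only the 1082 genes with several clusters could move, so most of that part was fixed too. The labels do not say that a replicate number marks 1 preparation. Same-numbered arrays of the peptides deviated together at r = 0.040 to 0.067, with 0 of 3 pairs above 0.1, although all 6 arrays correlated best with their own number, a hint from the data and not the design. With the replicate block there were 0 calls, and 18978 genes and 1539 response genes were held within 1.5-fold. The score difference of 0.020 cannot change with the block, since each treatment has 1 array per number. Dim genes had the widest intervals, and fewer genes were held with 1 array less.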

Other observations

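The clusters without a single gene symbol, 17824 in number, were compared between hPTH(1-31) and hPTH(1-34) in a fit of all 41345 clusters. None was called by limma (0, smallest adjusted p = 0.725), 1056 (5.92%) had an unadjusted p under 0.05, and 44.4% were held within 1.5-fold. The 85.5% of named genes comes from the separate fit of 22180 genes, with the brightest cluster of each. Signal was not matched between these sets, so the shares are not compared.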
